A study of Mus musculus with 31 samples.

Results

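Whole tumors of a mouse melanoma line were examined for 36 genes that are typical of T and natural killer (NK) lymphocytes. They were listed for what their proteins do in these cells, were found by an exact match of the gene symbol, and made up 36 of the 39179 rows of the count table. Of these, 35 were among the 15919 genes with enough counts in the tumors to be tested, and Sh2d1a, the gene of the adaptor SAP, was the exception with at most 6 counts in any tumor. T cells recognise peptides through a receptor that signals by way of the CD3 chains and the kinases Lck and Zap70, and use CD4 or CD8 as a coreceptor. NK cells share several of these chains and the cytotoxic proteins, but sense target cells through other receptors such as NKp46, the product of Ncr1. Glucocorticoids (GCs) act through a nuclear receptor encoded by Nr3c1, which is present in lymphocytes as well as in tumor cells, and are known to lower the number of circulating lymphocytes.

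All tumors were formed by a melanoma line of the genotype Tyr::CreERT2+/o and Nras+LSL-G12D, made on a C57BL/6 background, after implantation into the skin of wild-type mice of that strain, whose age the sources used here do not give. Parental tumors carried the unedited line. GRKO tumors carried cells of this line in which Nr3c1 had been cut with CRISPR/Cas9 ribonucleoprotein and which had been grown from single cells, so the knockout is that of the cancer cells and of a clone, while lymphocytes and all other host cells kept an intact receptor. In each genotype 5 mice had a control cream, which the study's methods name as cetraben, and 5 had clobetasol propionate, a potent GC, as a 0.05% ointment 3 times a week. RNA of the whole tumor was counted from tags at the 3′ end of transcripts, which do not grow with transcript length, so levels are given as CPM, counts scaled to the library's total with TMM factors (edgeR's trimmed mean of M-values), and not per kilobase. In addition, 11 cultures of the same cells without host cells, given DMSO or clobetasol, served as a background for what the cancer cells express.

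Total counts ran from 15528066 to 26386770 per tumor and from 14441166 to 22463188 per culture. A count of 3 or fewer was taken as the floor, which covers counting error only. Scaled to the library's total without the TMM factor, 3 counts correspond to 0.114 to 0.193 CPM in the tumors. With the factor this value changes, and in GRKO control tumor 1 the 3 counts of Cd28 were 0.212 CPM. No pair of libraries of a group agreed within sampling noise, the mean chi-square per gene lying between 8.26 and 411 over 50 pairs.

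The GRKO control tumors stood apart from the other libraries. Thinned to an equal depth, tumors 1 to 5 of this group held 13379, 14769, 15118, 16740 and 14243 detected genes, against 15132 in GRKO GC tumor 4 and up to 16875 in parental GC tumor 1. The abundant transcript Gm26924 took 11.6, 8.97, 6.57, 0.248 and 16.3% of their counts. In parental control tumors that share was 5.55, 1.76, 1.24, 1.70 and 0.439%, and in the GRKO GC tumors 0.8002, 2.89, 0.959, 6.65 and 1.48%. GRKO control tumors 1, 2, 3 and 5 were therefore low in detected genes and high in Gm26924, while GRKO control tumor 4 was the reverse on both measures. GRKO GC tumor 4 was the nearest to those 4 tumors among the treated ones. The TMM factors were 0.781, 0.836, 0.944, 1.09 and 0.837 in the GRKO control tumors and 1.12, 1.01, 1.16, 0.988 and 1.11 in the GRKO GC tumors. Whether these groups overlap in CPM can therefore depend on this scaling. For the comparisons that use the GRKO control group, the counts of called genes and the ratios are given below also without the 3 tumors with the fewest genes, which are GRKO control tumors 1, 2 and 5. That setting keeps GRKO control tumors 3 and 4 only, so it leans on the unlike tumor 4.

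**Figure D1:**
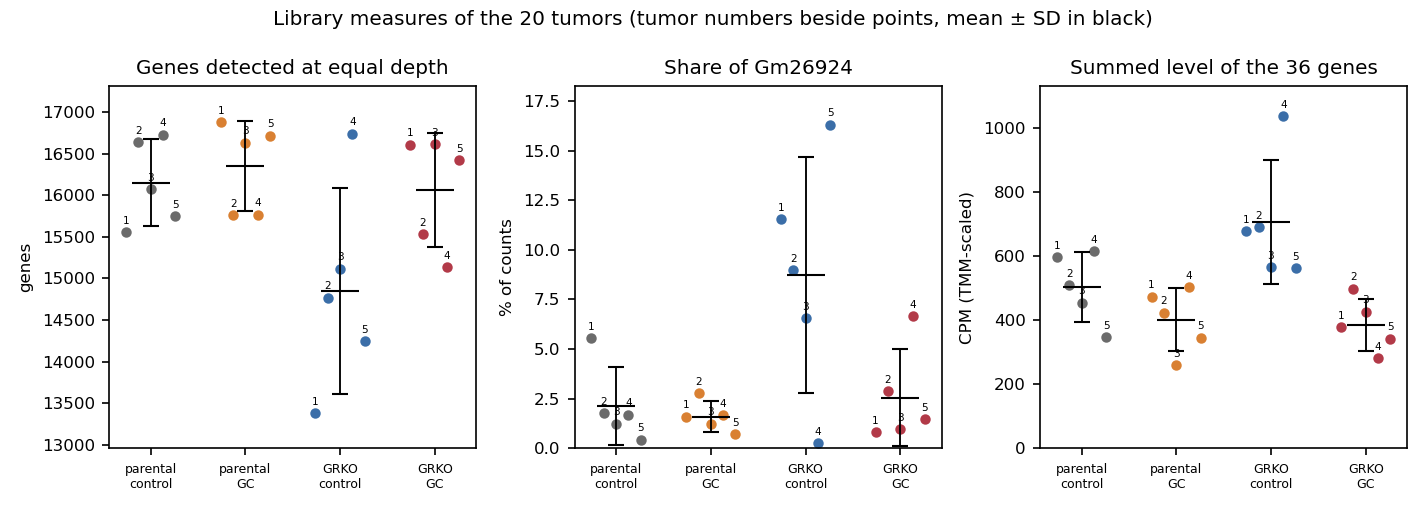
Genes detected at equal depth, percent of counts from Gm26924 and summed CPM of the 36 genes in each of the 20 tumors (points, with the tumor number; black marks give the mean ± SD of 5). GRKO control tumor 4 has the highest summed level, 1038 CPM, and 0.248% Gm26924, whereas the other GRKO control tumors hold 6.57 to 16.3% Gm26924.

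Nr3c1, the edited gene, measured 62.5, 55.9, 44.2, 54.8 and 51.3 CPM in the parental control tumors and 52.7, 24.1, 47.5, 36.7 and 49.03 in the parental GC tumors. The GRKO control tumors had 19.9, 26.6, 30.6, 31.9 and 23.03 CPM and the GRKO GC tumors 46.9, 21.4, 56.5, 32.01 and 48.6. Control tumors of the genotypes did not overlap, and GRKO tumors were lower by edgeR (log2 fold change -1.02 ± 0.24 SE, adjusted p = 0.0313), though without the 3 tumors the log2 fold change was -0.76 with no call, and GC-treated tumors of the genotypes overlapped (log2 fold change -0.02, edgeR adjusted p = 0.981). The cultures, which hold no host cells, had 32.2 to 40.5 CPM in parental and 13.4 to 25.3 CPM in GRKO cells, without overlap. Tags from the end of the transcript can lie outside the edited exon, and in tumors host cells contribute their own Nr3c1. These values therefore check the labels only in part.

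The 36 genes together were near background in the cultures. Their summed level was 3.46 to 11.4 CPM in the 11 cultures, and 0 to 1.17 CPM once Ctsw and Eomes were left out. Those 2 genes alone had more than 3 counts in every culture, with 18 to 102 counts for Ctsw and 16 to 102 for Eomes. The gene span of Ctsw (cathepsin W, a protease of cytotoxic cells) overlaps Fibp on the other strand. That of Eomes (a T-box factor of NK and memory CD8 T cells) overlaps Gm33460 on the other strand. These spans include introns, and whether counted tags fall on shared bases was not examined. No strand setting is named for the counting. The methods give defaults as the general rule, under which the counting tool ignores strand. Reads of a partner may therefore be among the counts of these 2 genes. In the tumors the members summed to 596, 509, 455, 615 and 347 CPM in the parental control group and 473, 424, 261, 503 and 346 CPM in the parental GC group. The GRKO control group had 679, 691, 567, 1038 and 563 CPM and the GRKO GC group 378, 498, 427, 281 and 342 CPM. GRKO control tumor 4 was far above the rest of its group, and every GRKO control tumor was above every GRKO GC tumor. In these bulk samples, fewer lymphocytes and less RNA of these genes per lymphocyte cannot be told apart.

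Averaged over the 20 tumors, Thy1 was the highest member at 115 CPM, followed by Il2rb at 56.2 and Cd2 at 48.8 CPM, and the SDs over tumors of Il2rb (26.4) and Cd2 (34.2) exceeded the gap between them. Thy1 was the highest member in 18 of the 20 tumors. In GRKO control tumor 1 Cd2, Zap70 and Il2rb (124, 90.04 and 86.5 CPM) were above Thy1 (62.1 CPM), and in GRKO control tumor 4 Cd2 (143 CPM) was level with Thy1 (142 CPM). Cd3d, Lck, Zap70, Ctsw, Nkg7, Cd96 and Cd8a lay between 29.8 and 18.4 CPM in that order, again with steps smaller than their spread over the tumors. At the low end were Cd226, Gzmk, Fasl and Prf1 at 1.30, 0.996, 0.957 and 0.556 CPM. These levels compare tag counts, which also depend on how well the end of each transcript is annotated. Thy1 is also expressed by fibroblasts and other stromal cells, and its level was 62.1 to 157 CPM with no call in any comparison.

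The effect of GC in the parental tumors was the first question. A gene was called when edgeR's quasi-likelihood test gave a Benjamini-Hochberg adjusted p under 0.05 over all genes tested and the fold change was at least 1.5. By that rule 0 of the 35 members were called lower and 0 higher, beside 0.345% of all genes tested called lower and 0.433% called higher. At an unadjusted p under 0.05 edgeR had 7 members, beside 2249 of the 15919 genes tested. DESeq2 called 4, Cd2, Cd247, Cd5 and Il2rb, each of them lower, beside 2.36% of all genes in either direction. The median log2 fold change was -0.41 over the members and 0.00 over all genes tested, with 28 of 35 members below 0. The tumors of the groups did not overlap, with GC lower, for 4 members, Cd2, Cd4, Ncr1 and Ifng, beside 1.65% of all genes tested. With the number of detected genes as a covariate, a setting added after seeing the data, 5 members were called lower (Cd2, Cd247, Cd5, Il2rb and Klrd1), and without parental GC tumor 1 Cd247 was called. The covariate fit called 3.30% of all genes and that omission 0.877%.

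In the GRKO tumors, whose cancer cells had the edited receptor gene, 10 of the 35 members were called lower with GC and 0 higher. All genes tested had 3.71% called lower and 2.71% called higher. The 10 were Cd3d, Cd247, Lck, Zap70, Lat, Txk, Cd2, Cd6, Ctsw and Tbx21. DESeq2 called 15 members, all lower, beside 1756 of the 15919 genes tested in either direction, where edgeR called 1022. At an unadjusted p under 0.05, 17 members were lower or higher by edgeR, beside 3893 of the 15919 genes tested. The median log2 fold change was -1.05 for the members and 0.05 for all genes tested, with 32 of 35 members below 0. In 8 members every GRKO GC tumor was below every GRKO control tumor, beside 2.46% of all genes tested, and these were Zap70, Cd247, Cd2, Lck, Txk, Ncr1, Il2rb and Cd6. The count depended on single tumors: it was 4 without GRKO GC tumor 3 or without GRKO GC tumor 5 (Cd2, Cd247, Lck and Zap70 each time), and 6 without GRKO control tumor 2 or GRKO GC tumor 1. These omissions called 1.91, 2.48, 3.08 and 3.44% of all genes, in that order. A setting added after seeing the data left out the 3 tumors with the fewest detected genes. It called 2 members (Cd2 and Cd247) among 68 genes, 0.431% of those tested. The members' median was then -1.22 and 20 members had an unadjusted p under 0.05, a count whose share over all genes is not given. The controls left were GRKO control tumors 3 and 4, with 567 and 1038 CPM summed over the members. With the number of detected genes as a covariate, 7 members were called lower, Cd2, Cd247, Lat, Txk and Zap70 of the 10 and also Cd96 and Il2rb, with a median of -1.26. The covariate fit called 1.36% of all genes. Without GRKO control tumor 4 the median was -0.69, the value nearest 0 over the 10 omissions. There 9 members were called, beside 15.2% of all genes in either direction.

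Whether the GC effect differed between the genotypes was tested as its own contrast. By edgeR 0 members were called, in either direction, beside 0.126% of all genes called higher and 0.0691% called lower, where higher means a GC effect that was more positive in parental tumors. At an unadjusted p under 0.05 there were 6 members, beside 3192 of the 15919 genes tested. DESeq2 called 1, Zap70, beside 4.92% of all genes in either direction. So a call in GRKO tumors and none in parental tumors does not show that the genotypes responded differently. Zap70 was called in this contrast without GRKO control tumor 4 (8.10% of all genes called) and without GRKO GC tumor 2 (0.422%). Its value lay between 1.58 and 2.28 over the 20 omissions. Without the 3 tumors with the fewest detected genes 0 members were called by edgeR, with 8 at an unadjusted p under 0.05. The median was 0.50 over the members and -0.04 over all genes. The members' median was 0.14 without GRKO control tumor 4, the lowest of 0.14 to 0.66 over the 20 omissions. It was 0.79 without the 3 tumors, where GRKO control tumor 4 stays in.

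**Figure D2:**
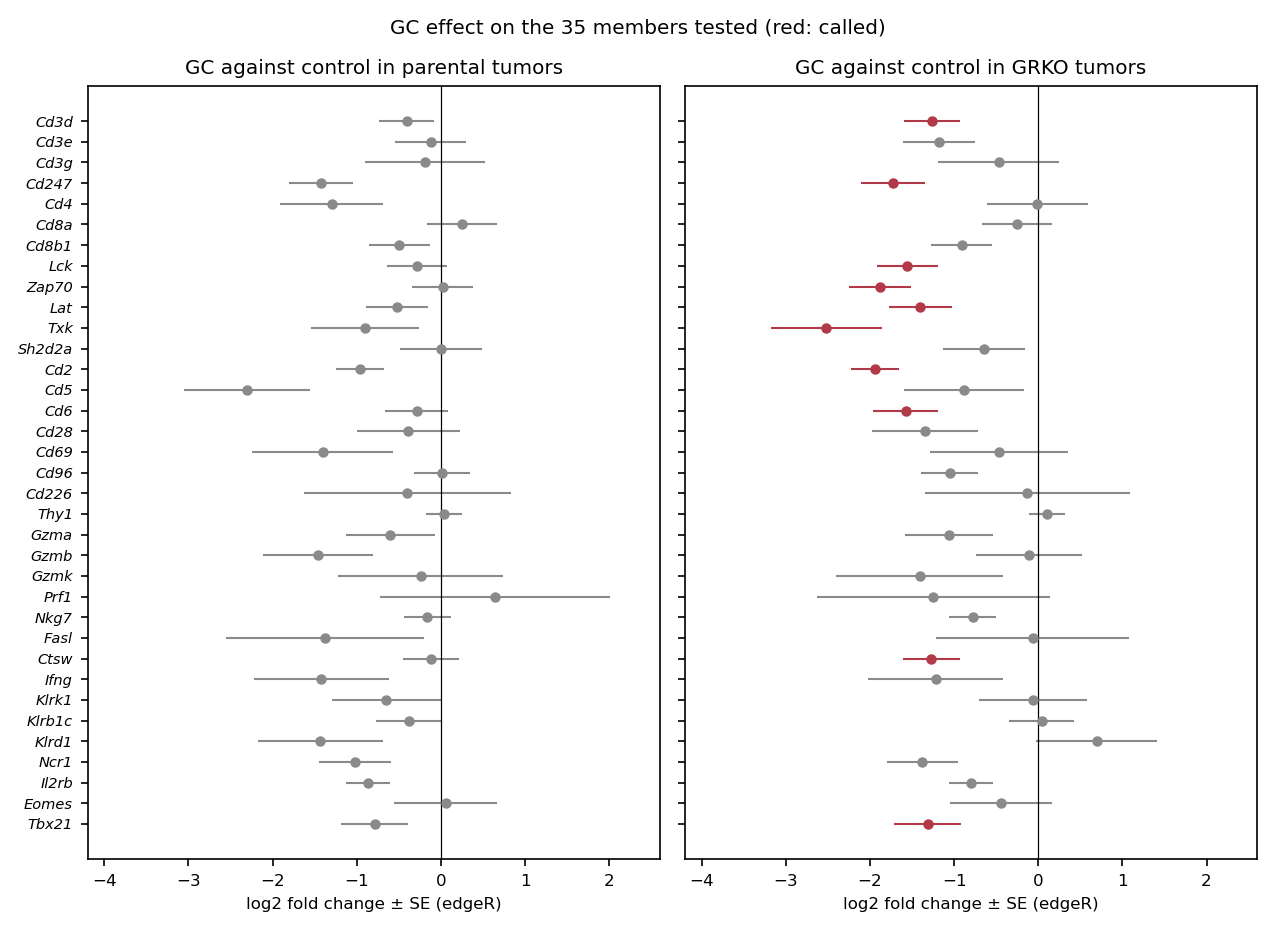
Log2 fold change ± SE (edgeR) of GC against control for the 35 members tested, in parental tumors (left) and GRKO tumors (right), with 5 tumors per group and called members in red. The 10 called members lie between -2.52 (Txk) and -1.26 (Cd3d) in the GRKO tumors, and 0 are called in the parental tumors.

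Among the chains of the CD3 complex, Cd3d and Cd247 were called lower with GC in the GRKO tumors. Cd247 encodes CD3 zeta, the chain with most of the signaling motifs (ENSMUSG00000005763, GRCm38 chr1:165788681-165877277, plus strand), and its span overlaps Gm16565 on the same strand and 5 genes, Pou2f1 among them, on the other strand. It measured 8.83, 12.1, 14.2, 21.9 and 10.6 CPM in GRKO control tumors and 2.93, 3.40, 6.39, 2.72 and 4.96 in GRKO GC tumors. The groups did not overlap, and the log2 fold change was -1.73 ± 0.39 (SE, n = 5 per group, edgeR adjusted p = 0.0116), a call that held without each of the 10 tumors in turn. In parental tumors Cd247 had 11.99, 9.87, 12.5, 12.9 and 5.83 CPM with control and 7.46, 1.34, 3.66, 3.25 and 4.04 with GC. Here parental control tumor 5 lay within the GC range, and the log2 fold change of -1.43 ± 0.38 had an edgeR adjusted p of 0.0819, which misses the threshold but was passed without parental GC tumor 1 (log2 fold changes of -1.78 to -1.21 over the 10 omissions). The difference between the genotypes' GC effects was 0.30 ± 0.53 (edgeR adjusted p = 0.789).

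Cd3d, the delta chain (chr9:44981786-44987339, plus strand), had 45.3, 66.6, 36.7, 48.4 and 25.6 CPM in GRKO control tumors and 13.2, 25.7, 20.04, 21.8 and 12.4 in GRKO GC tumors. GRKO control tumor 5 and GRKO GC tumor 2 overlapped by a small margin, and the log2 fold change was -1.26 ± 0.33 (edgeR adjusted p = 0.0264). The call was lost without GRKO control tumor 1 or 2 or without GRKO GC tumor 1, 3 or 5, where the log2 fold change stayed between -1.41 and -1.07 over all 10 omissions. Cd3e, the epsilon chain, measured 16.03, 19.1, 9.52, 15.3 and 9.38 CPM against 3.32, 10.3, 6.26, 5.54 and 5.27 CPM. It was not called (log2 fold change -1.18 ± 0.43, edgeR adjusted p = 0.0924), although DESeq2 called it, and it shares bases with Gm48720 on its own strand. Cd3g, the gamma chain, was low at 0.0706 to 5.81 and 0.209 to 2.88 CPM in these groups, with a log2 fold change of -0.47 ± 0.72 (edgeR adjusted p = 0.727). In parental tumors the log2 fold changes of Cd3d, Cd3e and Cd3g were -0.41, -0.12 and -0.19, and 0 of these were called by edgeR or by DESeq2.

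The proximal kinases and adaptors held 4 of the 10 calls in GRKO tumors. Zap70, the kinase that docks on phosphorylated CD3 chains (chr1:36761798-36782818, plus strand), had 90.04, 61.7, 37.6, 40.3 and 35.95 CPM in GRKO control tumors and 16.2, 27.96, 7.53, 11.3 and 9.73 in GRKO GC tumors. Parental tumors measured 21.2, 24.2, 14.5, 22.6 and 11.1 CPM with control and 15.9, 34.4, 8.97, 19.3 and 16.7 with GC. The GRKO control tumors were above every other tumor of the series, and the log2 fold change with GC was -1.88 ± 0.37 in GRKO tumors (edgeR adjusted p = 0.0055) and 0.02 ± 0.36 in parental tumors (edgeR adjusted p = 0.986). The GRKO call held in each of the 10 omissions of a tumor, but not without the 3 tumors with the fewest genes (log2 fold change -1.45, edgeR adjusted p = 0.137). The genotypes' GC effects differed by 1.90 ± 0.51 for this gene, with an edgeR adjusted p of 0.0853 that misses the threshold and a DESeq2 adjusted p of 0.0143. Zap70 overlaps Gm18828 on the other strand.

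Lck, the Src-family kinase that starts signaling from CD4 and CD8 (chr4:129548344-129573641, minus strand), measured 55.9, 32.01, 36.3, 56.1 and 31.3 CPM in GRKO control tumors and 17.4, 21.5, 15.6, 7.36 and 10.1 in GRKO GC tumors. The groups did not overlap, with a log2 fold change of -1.56 ± 0.36 (edgeR adjusted p = 0.0149). In parental tumors the values were 40.1, 27.5, 21.1, 34.7 and 12.02 CPM with control and 22.3, 30.4, 10.5, 36.5 and 11.6 with GC, which overlapped through most of their range (log2 fold change -0.28 ± 0.36, edgeR adjusted p = 0.775). Lat, the membrane scaffold phosphorylated by Zap70, had 10.5, 7.17, 13.8, 17.1 and 8.84 CPM in GRKO control tumors and 5.64, 7.18, 4.73, 1.31 and 2.86 in GRKO GC tumors. The ranges met only at GRKO control tumor 2 and GRKO GC tumor 2, and the log2 fold change was -1.40 ± 0.37 (edgeR adjusted p = 0.0276). Lat had 0 to 14 counts in the cultures, and its call was lost without GRKO control tumor 3 or GRKO GC tumor 3 or 5, with log2 fold changes of -1.66 to -1.17 over the 10 omissions.

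Txk, a Tec-family kinase of T and NK cells, was the member with the most negative log2 fold change in GRKO tumors, at low levels. It measured 3.67, 1.81, 3.73, 8.98 and 2.34 CPM in GRKO control tumors and 0.787, 0.797, 0.656, 0.366 and 0.938 in GRKO GC tumors. GRKO control tumor 4 was far above its group, the groups did not overlap, and the log2 fold change was -2.52 ± 0.66 (edgeR adjusted p = 0.0262). The call was lost without GRKO control tumor 4 (the log2 fold change over the omissions ran from -2.71 to -2.02) and without GRKO GC tumor 1, 3 or 5. Sh2d2a, which encodes the T cell adaptor TSAd, had 3.74 to 18.5 CPM in GRKO control tumors and 5.01 to 8.43 in GRKO GC tumors, with a log2 fold change of -0.65 and no call. Sh2d1a stayed at or near the floor, with 0.0354 CPM on average.

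**Figure D3:**
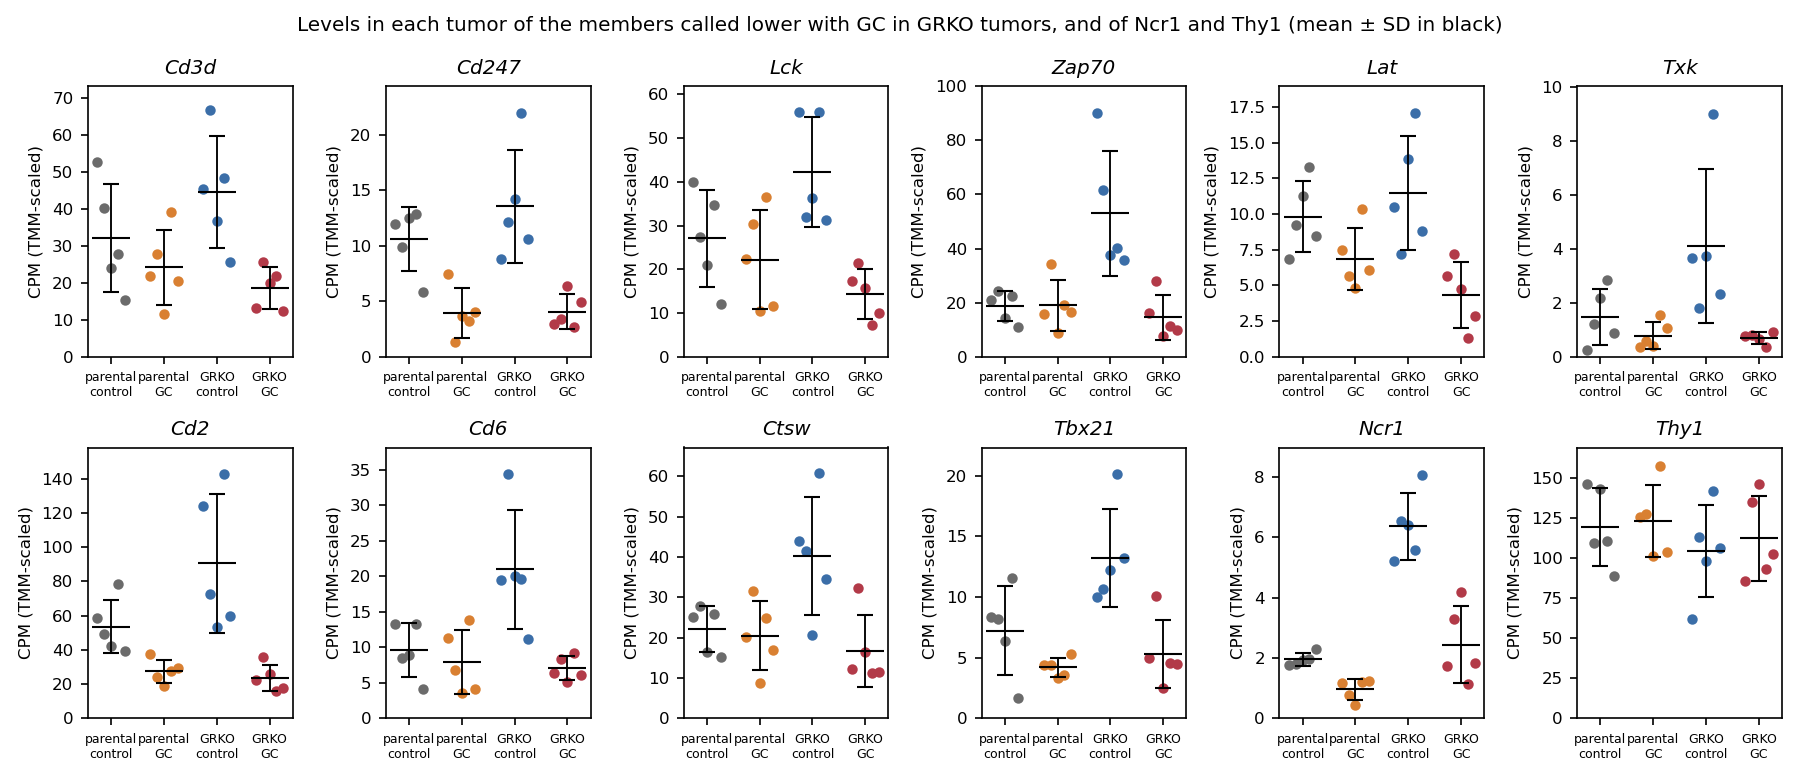
CPM in each of the 20 tumors (points; black marks give the mean ± SD of 5) of the 10 members called lower with GC in GRKO tumors, and of Ncr1 and Thy1. GRKO control tumors are above every GRKO GC tumor for Cd247, Lck, Zap70, Txk, Cd2, Cd6 and Ncr1, while Thy1 ranges over 62.1 to 157 CPM with the groups overlapping.

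Cd2, the receptor by which T and NK cells adhere to cells bearing CD48 (chr3:101275899-101287939, minus strand), had the smallest adjusted p of the members. It measured 124, 72.8, 53.3, 143 and 59.5 CPM in GRKO control tumors and 22.3, 35.7, 25.9, 16.1 and 17.8 in GRKO GC tumors. The parental values were 58.6, 48.98, 42.5, 78.3 and 39.5 CPM with control and 37.4, 24.2, 18.9, 27.7 and 29.5 with GC. In both genotypes every GC tumor was below every control tumor. The log2 fold change was -1.94 ± 0.29 in GRKO tumors (edgeR adjusted p = 0.000885), a call that held in all 10 omissions of a tumor and without the 3 tumors with the fewest genes (edgeR adjusted p = 0.00868). In parental tumors it was -0.96 ± 0.28 (edgeR adjusted p = 0.116, DESeq2 adjusted p = 0.0377), and the difference between the genotypes was 0.98 ± 0.40 (edgeR adjusted p = 0.175).

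Cd6, a receptor of the scavenger family that tunes T cell signaling, had 19.4, 34.4, 20.1, 19.7 and 11.2 CPM in GRKO control tumors and 6.42, 8.40, 5.08, 9.24 and 6.12 in GRKO GC tumors. The groups did not overlap, with a log2 fold change of -1.58 ± 0.38 (edgeR adjusted p = 0.0182) that was not called without GRKO control tumor 2 or GRKO GC tumor 3 or 5 (-1.74 to -1.32 over the 10 omissions). Its relative Cd5 measured 6.47, 2.96, 7.80, 10.5 and 5.06 CPM in parental control tumors and 3.58, 0.103, 0.915, 0.436 and 1.57 in parental GC tumors, and parental GC tumor 1 overlapped parental control tumor 2. Cd5 had the most negative log2 fold change of the members in parental tumors, -2.31, with an edgeR adjusted p of 0.166, and DESeq2 called it. Cd28 (costimulation), Cd96 (a nectin receptor of T and NK cells) and Cd226 (an activating receptor that competes with it for ligand) had log2 fold changes of -1.35, -1.05 and -0.13 in GRKO tumors, and 0 of them were called by edgeR, while Cd96 was called by DESeq2 and, by edgeR, with at least 10 counts in every tumor, with the covariate and without GRKO GC tumor 2. Cd69, an early activation and tissue-residency marker, was at 1.65 to 5.60 CPM in parental control tumors and 0.103 to 2.82 in parental GC tumors (log2 fold change -1.40 ± 0.84, edgeR adjusted p = 0.464). Thy1 measured 104 ± 28.8 CPM (SD, n = 5) in GRKO control and 112 ± 26.7 in GRKO GC tumors, a log2 fold change of 0.10 ± 0.21 (edgeR adjusted p = 0.8).

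Cd4, the coreceptor of helper and regulatory T cells, had 3.20, 2.77, 2.63, 3.52 and 1.69 CPM in parental control tumors and 0.907, 1.50, 1.18, 1.07 and 0.954 in parental GC tumors. Every parental GC tumor was below every parental control tumor, with 17 to 66 counts per tumor. The log2 fold change of -1.30 ± 0.61 was not called (edgeR adjusted p = 0.339). In GRKO tumors Cd4 had 0.424, 0.408, 2.06, 3.91 and 1.44 CPM with control and 0.699, 2.98, 1.49, 0.679 and 2.37 with GC, ranges that overlapped (log2 fold change -0.01 ± 0.60, edgeR adjusted p = 0.996). Cd8a, the alpha chain of the coreceptor of cytotoxic T cells, measured 20.2, 24.1, 10.8, 22.4 and 10.8 CPM in parental control tumors and 27.1, 16.6, 20.3, 18.3 and 22.9 in parental GC tumors. These ranges overlapped, as did 5.16, 11.1, 18.2, 46.9 and 13.8 CPM in GRKO control and 20.5, 23.1, 19.95, 9.03 and 7.05 in GRKO GC tumors. The log2 fold changes of Cd8a were 0.25 ± 0.42 in parental and -0.25 ± 0.42 in GRKO tumors (edgeR adjusted p = 0.838 and 0.752). Those of Cd8b1, the beta chain, were -0.50 ± 0.36 and -0.91 ± 0.36 (edgeR adjusted p = 0.566 and 0.127).

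A ratio of 2 genes within a library does not depend on how the libraries are scaled. The log2 ratio of Cd8a to Cd4 counts, with 0.5 added to each, was 2.65, 3.11, 2.03, 2.66 and 2.66 in parental control tumors and 4.86, 3.45, 4.08, 4.07 and 4.55 in parental GC tumors. Every GC tumor was above every control tumor, and the mean was 2.62 ± 0.38 with control and 4.20 ± 0.54 with GC (SD, n = 5), a ratio 2.99 times as high. The 2-sided exact permutation test gave p = 0.00794, the smallest that 5 against 5 tumors allow, which adjusted over the 8 ratio tests became 0.0635, so that a ratio at the smallest p could not pass unless another reached it too. Without parental GC tumor 3 the difference was 1.61 and the exact adjusted p 0.0317, since the parental Cd4 to Cd3e difference then also had the smallest p. In GRKO tumors the ratio was 3.50, 4.67, 3.12, 3.58 and 3.23 with control and 4.83, 2.95, 3.73, 3.68 and 1.57 with GC, and the difference of -0.27 had an exact p of 0.730. Over the 10 omissions it ran from -0.64 to 0.18, and its sign turned without GRKO GC tumor 5. Cd4 had few counts in several tumors, so these ratios carry its counting error.

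The other ratios gave no adjusted p under the threshold in the exact tests. Cd8b1 to Cd4 differed by 0.65 in parental and -1.16 in GRKO tumors (exact p = 0.198 and 0.135), and Cd8a to Cd3e by 0.52 and 1.18 (exact p = 0.452 and 0.151). Cd4 to Cd3e differed by -1.06 in parental tumors (exact p = 0.0714) and 1.45 in GRKO tumors (exact p = 0.143), and the parental difference was -1.50 with an exact adjusted p of 0.0317 without parental GC tumor 3. Single omissions moved these differences. That of Cd8b1 to Cd4 ran from 0.39 (without parental GC tumor 1) to 0.99 (without parental GC tumor 3) in parental tumors and from -1.36 to -0.76 (without GRKO GC tumor 5) in GRKO tumors. That of Cd8a to Cd3e ran from 0.11 (without parental GC tumor 3) to 0.85 (without parental GC tumor 2) and from 0.73 (without GRKO control tumor 1) to 1.54, and that of Cd4 to Cd3e in GRKO tumors from 0.95 (without GRKO control tumor 2) to 1.83. The difference between the genotypes' GC effects was tested after the data had been seen, by permuting genotype labels within each treatment over 63504 divisions. It was 1.85 for Cd8a to Cd4 (permutation p adjusted over 4 ratios = 0.0317), 1.81 for Cd8b1 to Cd4 (0.0402), -0.66 for Cd8a to Cd3e (0.4925) and -2.51 for Cd4 to Cd3e (0.0317). Leaving out each of the 20 tumors in turn, 15, 10, 0 and 15 of the 20 tests passed, with the largest adjusted permutation p being 0.0667 for Cd8a to Cd4 and for Cd4 to Cd3e and 0.0899 for Cd8b1 to Cd4. GRKO control tumors 1 and 2, which had 6 and 7 counts of Cd4, held the lowest Cd4 to Cd3e ratios of all tumors, -5.13 and -5.45. Genotype labels can be exchanged only where genotype has no effect on a ratio in either treatment. The mean log2 ratio of Cd4 to Cd3e in control tumors was -1.60 in parental and -3.48 in GRKO tumors. The permutation p-values therefore do not isolate a difference between the GC effects. Without the 3 tumors with the fewest genes, which leaves 2 GRKO control tumors, the differences between the genotypes were 1.58, 1.03, 0.48 and -1.10 in the same order, and 0 of the 4 passed (permutation p adjusted over 4 ratios = 0.105, 0.210, 0.574 and 0.210, unadjusted p = 0.0263 for Cd8a to Cd4 and 0.110 to 0.574 for the rest). The differences in GRKO tumors were then 0.00, -0.38, 0.04 and 0.04.

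**Figure D4:**
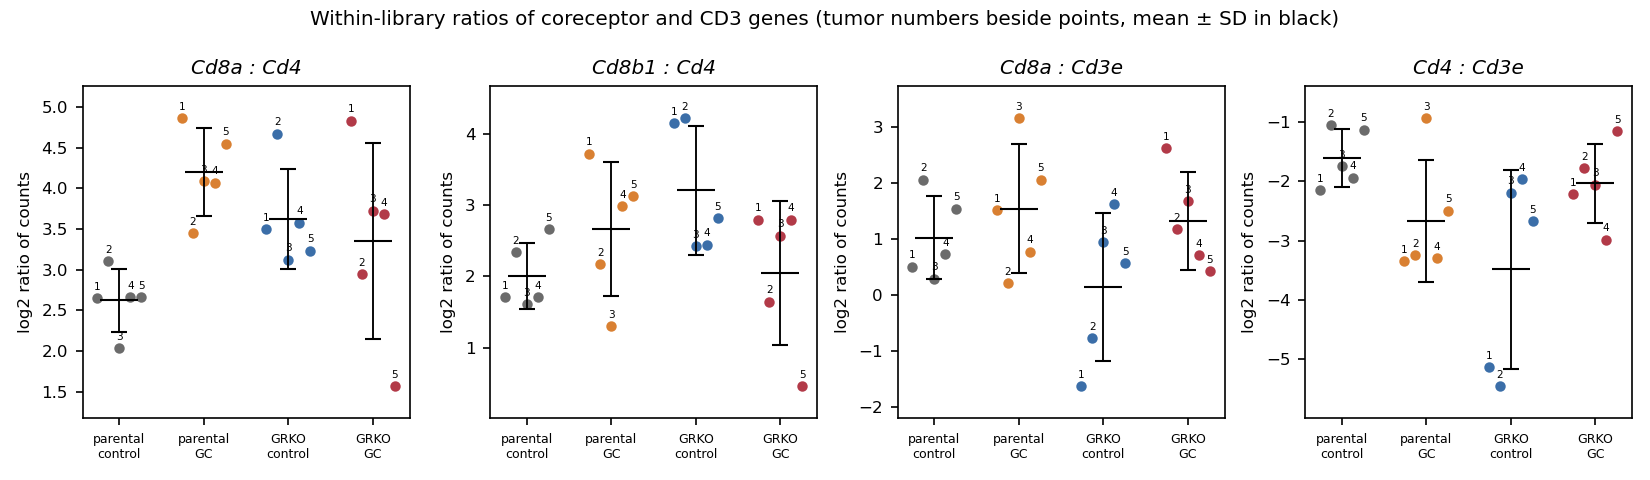
Log2 ratios of counts (0.5 added to each) within each tumor for Cd8a to Cd4, Cd8b1 to Cd4, Cd8a to Cd3e and Cd4 to Cd3e (points, with the tumor number; black marks give the mean ± SD of 5). The parental GC tumors lie between 3.45 and 4.86 for Cd8a to Cd4 and the parental control tumors between 2.03 and 3.11, whereas the GRKO groups overlap.

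Of the cytotoxic effectors, Ctsw was called in GRKO tumors. It had 44.1, 41.4, 20.7, 60.8 and 34.4 CPM in GRKO control tumors and 12.1, 32.2, 16.4, 11.3 and 11.5 in GRKO GC tumors. GRKO GC tumor 2 was far above its group and reached into the control range, and the log2 fold change was -1.27 ± 0.34 (edgeR adjusted p = 0.0279). That call was lost without GRKO control tumor 1 or 2 or GRKO GC tumor 1, 3 or 5, with log2 fold changes of -1.65 to -1.08 over the 10 omissions. Nkg7, a granule membrane protein, measured 37.6 ± 12.3 CPM (SD, n = 5) in GRKO control and 21.97 ± 5.22 in GRKO GC tumors, with a log2 fold change of -0.78 ± 0.28 (edgeR adjusted p = 0.0892) that DESeq2 called. The granzymes are serine proteases of the granules. Gzma had 4.24, 11.4, 11.8, 18.8 and 5.05 CPM in GRKO control tumors and 8.30, 5.95, 5.43, 1.88 and 2.99 in GRKO GC tumors, which overlapped (log2 fold change -1.06 ± 0.53, edgeR adjusted p = 0.216). In parental tumors it had 0.769 to 4.91 CPM with control and 0.517 to 3.07 with GC.

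Gzmb measured 2.07, 2.77, 2.63, 2.83 and 1.10 CPM in parental control tumors and 2.27, 0.103, 0.827, 0.145 and 0.785 in parental GC tumors. Parental GC tumor 1 was within the control range and the log2 fold change of -1.46 ± 0.65 was not called (edgeR adjusted p = 0.312). In GRKO tumors it was -0.11 ± 0.63 (edgeR adjusted p = 0.936). Ifng, the gene of interferon gamma, had 1.63, 3.85, 2.74, 2.72 and 1.50 CPM in parental control tumors and 1.46, 0.207, 0.435, 1.31 and 1.23 in parental GC tumors. The groups did not overlap, but the edgeR adjusted p was 0.436 for a log2 fold change of -1.42 ± 0.80, and Ifng shares bases with Gm49751 on its strand. In GRKO tumors, where control tumor 4 stood far above its group, it was -1.22 ± 0.80 (edgeR adjusted p = 0.362). Prf1, the gene of perforin, was low and uneven within the groups, with 0 to 34 counts per tumor, at 0 to 1.32, 0 to 1.65, 0 to 1.98 and 0 to 1.04 CPM, and was not called (GRKO log2 fold change -1.25 ± 1.38, edgeR adjusted p = 0.613). Gzmk and Fasl (Fas ligand) were similarly low, at most 2.79 and 3.87 CPM in any tumor.

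Ncr1, the NK receptor gene for NKp46, measured 1.76, 1.79, 1.93, 1.97 and 2.31 CPM in parental control tumors and 1.16, 0.776, 0.435, 1.21 and 1.23 in parental GC tumors. GRKO tumors had 5.23, 6.53, 6.39, 5.58 and 8.06 CPM with control and 1.75, 3.30, 4.20, 1.15 and 1.83 with GC. GC tumors were below control tumors without overlap in both genotypes, and neither effect was called (log2 fold change -1.02 ± 0.43 in parental and -1.38 ± 0.42 in GRKO tumors, edgeR adjusted p = 0.282 and 0.0511). The GRKO effect was called by DESeq2 and, by edgeR, with RLE size factors (those of DESeq2), with a filter of at least 10 counts in every tumor, and without GRKO control tumor 4 (-1.67 to -1.20 over the 10 omissions). Klrb1c, the gene of NK1.1, had 2.97 to 8.98 CPM in GRKO control and 3.03 to 7.65 in GRKO GC tumors (log2 fold change 0.04 ± 0.38, edgeR adjusted p = 0.964), and it shares bases with Gm44511 on its strand. Klrk1 (NKG2D) and Klrd1 (CD94) had log2 fold changes of -0.06 and 0.70 in GRKO tumors and of -0.65 and -1.43 in parental tumors, with no call other than that of Klrd1 in parental tumors with the covariate.

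Il2rb, the receptor chain for IL-2 and IL-15, had 69.4, 52.9, 45.3, 85.9 and 51.9 CPM in parental control tumors and 51.6, 31.6, 20.1, 37.1 and 27.2 in parental GC tumors. The GRKO values were 86.5, 62.2, 63.95, 140.4 and 60.2 CPM with control and 57.5, 43.7, 51.1, 33.2 and 51.8 with GC. Parental control tumor 3 lay within the GC range, and the GRKO groups did not overlap in TMM-scaled CPM. That separation rests on the TMM factors, as GRKO control tumor 5 had 1001 of 19871559 counts and GRKO GC tumor 1 had 1317 of 20421176. The log2 fold changes in parental and GRKO tumors were -0.87 ± 0.26 and -0.80 ± 0.26 (edgeR adjusted p = 0.129 and 0.0664). Neither was called by edgeR, and both were called by DESeq2 and, in edgeR, with the number of detected genes as a covariate. Tbx21, which encodes T-bet, the T-box factor of Th1, cytotoxic and NK cells (chr11:97098071-97115331, minus strand), had 10.03, 10.7, 12.2, 20.1 and 13.2 CPM in GRKO control tumors and 4.98, 10.05, 2.54, 4.60 and 4.46 in GRKO GC tumors. GRKO GC tumor 2 touched the lower edge of the control range, and the edgeR adjusted p of 0.0499 (log2 fold change -1.32 ± 0.40) was just under the threshold. It stayed a call in 1 of the 10 omissions, that of GRKO GC tumor 2, and was lost in the rest, with log2 fold changes of -1.67 to -1.12. Eomes was at 0.998 to 9.26 CPM in GRKO control tumors and 1.06 to 5.25 CPM in the cultures, and 2 tumors, GRKO control tumors 4 and 5, lay above that culture range.

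Between the genotypes, the control tumors were compared next; they are the same tumors as the controls of the GC comparisons. Here 2 members were called higher in GRKO tumors and 0 lower, beside 1.26% of all genes tested called higher and 0.986% called lower. Zap70 was higher by a log2 fold change of 1.52 ± 0.37 (edgeR adjusted p = 0.0331) and Ncr1 by 1.71 ± 0.43 (edgeR adjusted p = 0.0376). For each, every GRKO control tumor was above every parental control tumor. How many of all genes tested separate these groups in that way is not given, so this adds nothing to the calls. DESeq2 called 5, adding Cd6, Gzma and Nkg7, beside 6.29% of all genes in either direction. Leaving out any 1 of the 5 parental control tumors, or GRKO control tumor 1 or 2, left 0 members called by edgeR, while leaving out GRKO control tumor 3 or 5 left 1 (Zap70). The log2 fold change over these omissions was 1.23 to 1.63 for Zap70 and 1.61 to 1.78 for Ncr1. Without the 3 tumors with the fewest detected genes, or with the number of detected genes as a covariate, 0 were called by edgeR, with 11 and 15 members at an unadjusted p under 0.05 against 10 with all tumors and no covariate. Of the 15919 genes tested with all tumors and no covariate, 3180 had an unadjusted p under 0.05. The median log2 fold change was 0.56 for the members and -0.04 for all genes tested, with 29 of 35 members above 0. The members' median was 0.35 without GRKO control tumor 4, the lowest over the 10 omissions. It was 0.79 without the 3 tumors, where GRKO control tumor 4 stays in, and 0.86 with the covariate.

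The GC-treated tumors of the genotypes, again those of the comparisons above, were compared last. By edgeR 0 members were called between GRKO and parental GC tumors, beside 0.195% of all genes called higher and 0.440% called lower. There were 5 members at an unadjusted p under 0.05, beside 1816 of the 15919 genes tested. DESeq2 called 0 members, beside 1.84% of all genes. The median was 0.06 for the members and 0.01 for all genes, and that of the members ran from -0.15 (without parental GC tumor 3) to 0.17 (without parental GC tumor 1) over the 10 omissions, so its sign rests on single tumors. Ncr1 had a log2 fold change of 1.35 ± 0.43 (edgeR adjusted p = 0.19), Gzmb of 1.77 ± 0.66 (edgeR adjusted p = 0.288) and Klrd1 of 1.99, which was called with the number of detected genes as a covariate. A p above the threshold does not show equal levels.

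Further genes of T and NK cells, listed for their function, were counted in the same way. Of 18 other T cell genes tested, 5 were called lower with GC in GRKO tumors and 0 higher (median -1.04), and 1, Rhoh, was lower in parental tumors (median -0.37). The GRKO calls included Icos, a costimulatory receptor (log2 fold change -1.45, edgeR adjusted p = 0.00806), Cd27 (-1.90, edgeR adjusted p = 0.0302) and the adaptor Skap1 (-1.59, edgeR adjusted p = 0.0231). Trac, the constant region of the receptor's alpha chain, had 0 counts in every library, and Trat1 was at the floor, while Trbc1 was detected in 19 of 20 tumors. Fyb, the most abundant gene of the list, was also present in the cultures, where the list summed to 34.9 to 65.5 CPM. Among 17 other NK and cytotoxic genes, 3 were lower in GRKO tumors (Ccl5, Il18rap and Klrc1) and 0 in parental tumors by edgeR (3 at an unadjusted p under 0.05) or DESeq2, with medians of -0.52 and -0.48. Gzmc led that list, and 4 of its genes reached a mean of 1 CPM in the cultures, the called Il18rap and Ccl5 among them. Il18rap had 8.82 to 25.8 CPM in the cultures against 18.6 to 39.2 in GRKO GC tumors, and Ccl5 0.289 to 4.50 against 47.99 to 95.95 CPM.

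Among 6 regulatory T cell genes tested, 3 were called lower with GC in GRKO tumors, Foxp3, Tnfrsf4 and Tnfrsf18, and 0 in parental tumors by edgeR (5 at an unadjusted p under 0.05, and 1, Il2ra, called by DESeq2), with medians of -1.40 and -0.81. Foxp3, the lineage factor, measured 6.92, 22.6, 13.5, 24.7 and 22.4 CPM in GRKO control tumors and 2.71, 9.52, 3.98, 1.31 and 1.88 in GRKO GC tumors. The parental values were 18.5, 14.2, 6.79, 15.8 and 8.83 CPM with control and 6.25, 9.46, 2.66, 6.74 and 3.25 with GC, and the log2 fold changes were -2.22 and -1.18 (edgeR adjusted p = 0.0098 and 0.252). Of 6 dysfunction genes, 2 were lower in GRKO tumors (Cxcr6 and Entpd1). Cxcr6 had 2.60 to 12.8 CPM in the cultures, a range that holds that of the GRKO GC tumors (3.24 to 9.19 CPM). Of 8 naive and memory genes, 0 were called in either genotype (edgeR, with 1 at an unadjusted p under 0.05 in GRKO and 4 in parental tumors), while DESeq2 called 1 in each, Satb1 and Ccr7. The gamma-delta list had 2 genes tested and 0 called by edgeR or DESeq2, with 0 at an unadjusted p under 0.05 in either genotype, and its markers Tcrg-C4, Trdv4 and Il17a were at the floor in every tumor. Without the 3 tumors with the fewest genes, a setting added after seeing the data as was DESeq2 for these lists, 5 genes of the lists of T and NK cells were called lower with GC in GRKO tumors, Icos, Trbc1, Ccl5, Tnfrsf4 and Tnfrsf18. In parental tumors the same setting called Rhoh, Ccr7 and Il2ra lower.

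Markers of other cells were measured in the same comparisons. The pan-leukocyte list, led by Laptm5, summed to 3169.6, 2442, 2132, 2175 and 1968 CPM in GRKO control tumors and 1237, 1453, 1097, 1101 and 1142 in GRKO GC tumors. Its parental sums were 1585, 1498, 1309, 1649.5 and 1277 CPM with control and 1371, 1587, 935, 1617 and 1191 with GC. With GC, 3 of its 8 genes were lower in GRKO tumors and 1 (Coro1a) in parental tumors, with 0 higher in each. Of 7 dendritic cell genes, led by Itgax, 3 were lower in GRKO tumors, and the list summed to 256, 254, 181, 224 and 146 CPM with control against 61.7, 92.4, 72.2, 70.1 and 72.5 with GC. In parental tumors all 7 had log2 fold changes below 0, with 0 called by edgeR (1 at an unadjusted p under 0.05) or DESeq2. Neutrophil genes, led by Mmp9 and with Ly6g at the floor, had 3 of 7 lower in parental tumors (S100a8, S100a9 and Il1b) and 1 in GRKO tumors. In macrophage genes, led by C1qa, 1 of 10 was higher in each genotype (Mertk in parental and Mrc1 in GRKO tumors) and 0 were lower. Their part in the results of the lymphocyte genes was not tested.

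Fibroblast genes, led by Col3a1, had 5 of 8 called higher with GC in GRKO tumors and 0 by edgeR in parental tumors (4 at an unadjusted p under 0.05, and 1, Pdgfrb, called lower by DESeq2), and summed to 3619, 3969, 4531, 6751 and 5138 CPM in GRKO control tumors against 10002, 8151, 11256, 7414 and 11234 in GRKO GC tumors. The endothelial list, led by Egfl7, summed to 159.9, 152, 148, 157 and 164 CPM in GRKO control tumors and 71.9, 81.8, 68.5, 86.5 and 70.8 in GRKO GC tumors, with 2 of 8 genes lower with GC (Kdr and Egfl7). Its parental sums were 99.2, 89.04, 69.1, 96.6 and 71.2 CPM with control and 58.5, 62.9, 43.5, 65.1 and 54.4 with GC, again without overlap, and all 8 genes had log2 fold changes below 0 there, with 0 called by edgeR (3 at an unadjusted p under 0.05) and Kdr called lower by DESeq2. Egfl7 had 8.45 to 26.95 CPM in the cultures. Kdr and Egfl7 were also higher in GRKO than in parental control tumors, a call lost without the 3 tumors with the fewest genes. Keratinocyte genes, led by Krt14, had 2 of 8 higher and 1 lower in GRKO tumors and 2 higher in parental tumors, and skeletal muscle genes, led by Acta1, had 1 of 8 lower in GRKO tumors. B cell genes, led by Cd79b, summed to 4.02 to 19.03 CPM per tumor, with Cd79a and Pax5 at the floor, and with GC in GRKO tumors 3 of the 4 tested had log2 fold changes below 0 (median over the 4, -1.18), of which DESeq2 called Cd79b lower and edgeR 0 (2 of the 4 genes at an unadjusted p under 0.05). The other, Igj, was called higher, with 0 counts in each GRKO control tumor and 24, 14, 28, 0 and 26 in GRKO GC tumors. Lymph node stroma genes summed to 2.19 to 23.8 CPM, with Ccl19 and Ccl21a at the floor, and 1 of 3 tested, Cxcl13, was higher in GRKO tumors, where the other 2 had log2 fold changes below 0 and the median was -0.78. Melanocyte genes had 0 of 6 called by edgeR or DESeq2 in either GC comparison (1 at an unadjusted p under 0.05 in parental tumors and 0 in GRKO tumors), and Tyr, the tyrosinase gene, was at the floor in every tumor. Without the 3 tumors, the genes of these other cells called with GC in GRKO tumors were Il1b of the neutrophil and Itgax of the dendritic cell list. The part of these lists in the lymphocyte results was not tested.

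RefSeq promoter sequence of build GRCm38.p6 was at hand for 23 of the 36 members, 7 of them called lower with GC in GRKO tumors, and the 250 bases before the start were searched on both strands, with no test of the called against the other members. AGGAAG, the core of sites for ETS factors, which act in T cell genes, was found in 7 of the 7 called members and 6 of the 16 others, and in 29.5% of all 32851 promoters. CACCTG, an E-box, was in 4 of 7 and 5 of 16 (17.2% of all), and TGTGGT, a RUNX core, in 1 of 7 and 8 of 16 (14.0%). GGAAAA for NFAT was in 1 of 7 and 2 of 16 (20.4%), GGTGTG for T-box factors in 2 of 7 and 3 of 16 (16.3%), and CGGAAG, an ETS core with a CpG, in 0 of 7 and 1 of 16 (13.6%). AGAACA, the hexamer bound by a glucocorticoid receptor monomer, was in 1 of 7 and 6 of 16 (16.1%). Matches of AGGAAG can share at most 2 bases with those of another motif searched, and the most that any pair can share is 4, for GGTGTG with TGTGGT or with CACCTG. A match says that the letters are there, not that a factor binds. Lck had 2 promoter entries, Zap70 3 and Txk 2. For Lck and Zap70 the entry next to the start of the gene's span is shown. The promoters of Cd3d at chr9:44981536-44981785 (plus strand), Cd247 at chr1:165788431-165788680 (plus strand), Lck at chr4:129573642-129573891 (minus strand) and Zap70 at chr1:36761548-36761797 (plus strand) are shown as those of the called CD3 chains and of the kinases Lck and Zap70 that act first on them, 5′ to 3′ along the gene, with AGGAAG or its reverse complement CTTCCT in capitals.
Cd3d: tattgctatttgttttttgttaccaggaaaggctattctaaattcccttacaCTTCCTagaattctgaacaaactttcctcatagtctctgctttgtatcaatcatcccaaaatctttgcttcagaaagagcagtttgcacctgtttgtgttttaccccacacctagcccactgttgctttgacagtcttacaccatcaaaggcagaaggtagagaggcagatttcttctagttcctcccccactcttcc
Cd247: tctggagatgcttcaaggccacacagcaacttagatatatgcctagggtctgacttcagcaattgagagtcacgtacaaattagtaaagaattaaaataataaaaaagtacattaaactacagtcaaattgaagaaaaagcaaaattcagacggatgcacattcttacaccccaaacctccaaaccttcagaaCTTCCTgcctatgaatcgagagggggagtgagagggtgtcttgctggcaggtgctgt
Lck: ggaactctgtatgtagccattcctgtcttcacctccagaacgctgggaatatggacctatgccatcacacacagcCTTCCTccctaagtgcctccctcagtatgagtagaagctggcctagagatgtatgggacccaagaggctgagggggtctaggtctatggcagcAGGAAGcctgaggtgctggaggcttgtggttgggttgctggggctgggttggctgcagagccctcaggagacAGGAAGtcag
Zap70: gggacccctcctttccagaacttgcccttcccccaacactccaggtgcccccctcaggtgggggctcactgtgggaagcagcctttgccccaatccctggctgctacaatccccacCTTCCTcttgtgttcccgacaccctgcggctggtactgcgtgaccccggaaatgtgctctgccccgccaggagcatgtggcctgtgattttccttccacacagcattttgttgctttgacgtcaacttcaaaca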

How the data were processed

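RNA of 20 whole tumors and 11 cultures was sequenced from 3′ tags, and per the study's methods the authors trimmed and aligned the reads to the mouse genome and deposited whole-number counts per gene, which carry no normalization. The genes, the other gene lists and the comparisons were chosen with earlier results of these data known. A gene was tested when 3 or more tumors reached 0.5 CPM, with edgeR 4.0.16 in R 4.3.3 (quasi-likelihood test, TMM factors, 4 groups of 5 tumors in one fit without covariates, Benjamini-Hochberg adjustment over all genes tested), and DESeq2 1.42.0 was the other tool. The fits were tested on simulated counts, where changes of genes with few counts were mostly missed. Levels are TMM-scaled CPM over all 31 libraries. Full statistics are given for called members and for 16 lineage or effector genes set by name whatever they did, up to 3 called genes of each other list are named, and further genes were named after their values were seen. Ratios were tested by 2-sided exact permutation. Each group's tumors came from separate mice per the design text, while nothing states whether cultures were independent. The labels give 10 µM clobetasol for 48 h in the cultures and the library names 1 µM. Alternatives were other scaling, filters, fold limits, a replicate block, fits of the compared groups alone and omission of each tumor. For the read counting no version or strand setting is named, and the methods give defaults as the general rule, which for this tool means counting without strand. Trdc and Ighd matched no row.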

Additional observations from a re-analysis of the deposited data

Results flagged for a closer look

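In groups of 5 tumors, the highest or lowest value stood far from the other 4 (Dixon's criterion, a gap that is large against the group's range) in 7 of 128 groups examined, and chance does so in about 1 of 20 groups. GRKO control tumor 4 accounts for 4 of them: 21.3 CPM of Cd8b1 (8.10 to 11.2 in the other 4 tumors), 8.98 CPM of Txk (1.81 to 3.73), 4.72 CPM of Ifng (0.361 to 1.46) and 1038 CPM summed over the 36 genes (563 to 691). Nkg7 was 30.6 CPM in parental control tumor 1 (16.2 to 20.2 in the others), Ctsw 32.2 CPM in GRKO GC tumor 2 (11.3 to 16.4) and Prf1 1.04 CPM in GRKO GC tumor 4 (0 to 0.268).

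The effect of GC on a log2 ratio differed between the genotypes, parental minus GRKO, by 1.85 for Cd8a to Cd4, by 1.81 for Cd8b1 to Cd4 and by -2.51 for Cd4 to Cd3e. Without GRKO control tumors 1, 2 and 5 the differences were 1.58, 1.03 and -1.10, and 0 of them passed (permutation p adjusted over 4 ratios = 0.105, 0.210 and 0.210, unadjusted p = 0.0263, 0.157 and 0.110). Of these tumors, 1 and 2 had 6 and 7 counts of Cd4. This permutation test was added after seeing the data, and the ratios share genes, so the 3 values are not independent. The test also takes genotype to have no effect within each treatment, so its p-values do not isolate a difference between the GC effects.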

How the results depend on the processing

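Over the settings tried, 0 called results changed sign. With GC in parental tumors 0 members were called by edgeR, 4 by DESeq2 and 5 with the number of detected genes as a covariate, and 0 to 1 when single tumors were left out. In GRKO tumors 10 were called, 7 with the covariate (5 of them among the 10), 6 when the 2 groups were fitted alone, 2 without the 3 tumors with the fewest genes, and 4 to 11 when single tumors were left out. For the difference between the genotypes 0 were called, 1 by DESeq2, and 0 to 1 when single tumors were left out. Between control tumors 2 were called, 5 by DESeq2, 1 without a filter on low counts, 1 with the 2 groups alone, 0 with the covariate, 0 without the 3 tumors and 0 to 2 when single tumors were left out. Between GC tumors 0 were called, and 1 with the covariate. The covariate and the omission of 3 tumors were chosen after seeing the data. Omissions leave fewer tumors in a group, and the cause of these changes was not tested.

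Counts over all genes moved too. For GC in parental tumors, 124 genes were called by edgeR, 376 by DESeq2, 526 with the covariate and 60 to 178 without single tumors. For GC in GRKO tumors these were 1022, 1756, 217 and 303 to 2411, with 391 for the 2 groups alone, 583 at a fold of at least 2 and 68 without the 3 tumors. The difference had 31, 784, 15 and 0 to 1284, with 49 without a filter, 66 with at least 10 counts in every tumor and 0 without the 3 tumors. The control tumors had 358, 1001, 51 and 61 to 1762, with 159 for the 2 groups alone, 238 at a fold of at least 2 and 23 without the 3 tumors. The GC tumors had 101, 293, 362 and 40 to 114, with 153 without the 3 tumors.

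Over single omissions the parental log2 ratio difference ran from 1.42 to 1.77 for Cd8a to Cd4 and from -1.50 to -0.89 for Cd4 to Cd3e. Tumor numbers were not taken as pairing the samples in the main fits. Deviations of tumors with the same number correlated above 0.1 in 17 of 30 pairs (mean 0.0584, -0.546 to 0.416), against 42 of 120 pairs with other numbers (mean -0.0128). Of 20 tumors, 7 correlated best with their own number, which 3 of the 15 tumors of the other groups carry. These values do not settle whether the numbers pair the tumors. With a replicate block, 9 members were called in GRKO tumors, 1 for the difference (Zap70, with 144 genes in all), 1 between control tumors, 0 in parental and 0 between GC tumors, where 160 genes were called, and the sign-flip p of Cd8a to Cd4 in parental tumors was 0.0625, the smallest 5 pairs allow.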
